A study of Homo sapiens with 10 samples.

Results

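The TM4SF genes encode small membrane proteins of the L6 family, and 5 of them, TM4SF1, TM4SF18, TM4SF4, TM4SF5 and TM4SF20, were followed in A549 cells and in their cisplatin-resistant counterpart A549/DDP. The 5 genes were matched by symbol among 58037 gene identifiers, and all 5 were among the 16406 genes that passed the filter on low counts. They were chosen by their values in these same input libraries, in which some members were higher and others lower in A549/DDP, so the differences between the lines are given for them as a description with no test. The tables held 10 gene symbols that begin with TM4SF. The other 5 are TM4SF19, its readthrough gene and 3 antisense genes.

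A549 is a human lung adenocarcinoma line, and DDP is cisplatin, a platinum drug that binds DNA. Of 10 libraries, 2 were inputs of A549, 2 were inputs of A549/DDP, 2 of each line were m6A-seq libraries, and 2 more A549 inputs formed a second pair whose labels do not name another experiment. All cells were at low passage and grew in RPMI 1640 medium with serum and antibiotics, and no label gives a drug treatment at harvest. The study received the A549/DDP line from another laboratory and bought A549, so resistance and the source of the line cannot be told apart. A bulk library also cannot tell fewer cells that express a gene from less RNA per cell. The labels do not say whether replicates came from separate cultures, so the p-values given here measure the spread between these libraries, which may be technical.

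L6 proteins cross the membrane 4 times, as the tetraspanins do, but are not related to them in sequence. They sit with integrins and growth factor receptors in membrane patches, where they affect adhesion, migration and signalling. TM4SF1 is the L6 tumor antigen of many carcinomas and of endothelium, TM4SF4 and TM4SF5 are best known from liver and intestine, and TM4SF20 from intestine. TM4SF18 is little studied.

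The first A549 and A549/DDP inputs held between 29225501 and 35286514 expected counts. The second A549 pair held 855034 and 982036, of which 75.2% and 73.9% were mitochondrial, so 211799 and 256064 counts remained for all other genes. In that pair 3 counts, taken as the floor of detection, equal 14.2 and 11.7 CPM (counts scaled to a common library total) once mitochondrial genes are left out, and the pair was used for levels and as an alternative only. Of 5 epithelial markers (EPCAM, KRT8, KRT18, KRT19 and CDH1), all had counts in the first A549 inputs and A549/DDP replicate 1, and KRT19 was at 0 in A549/DDP replicate 2. Levels differed between the lines in all of them but EPCAM. KRT8 had 1307 and 3254 FPKM in A549 and 6467 and 6555 in A549/DDP, and KRT18 had 1026 and 1604 against 3084 and 3132. CDH1 had 18.6 and 25.1 against 149 and 75.8, and KRT19 had 21.5 and 39.8 against 6.08 and 0. EPCAM overlapped, with 1.58 and 4.32 against 2.99 and 3.55. The part of these markers in the members' levels was not tested. Markers of alveolar cells (NKX2-1, SFTPB, SFTPC and NAPSA) summed to at most 2.96 FPKM and those of endothelium (PECAM1, CDH5, VWF, KDR and TEK) to at most 0.24. Leukocyte markers (PTPRC, CD3E and CD14) summed to at most 3.22 FPKM and fibroblast markers (COL1A1, COL1A2 and PDGFRA) to between 1.66 and 11.6 in the first inputs. The alveolar and fibroblast sums were highest in A549/DDP replicate 1, and their part in the results was not tested.

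On chromosome 3, in GRCh38 coordinates, 3 members lie side by side. TM4SF1 spans chr3:149369022-149377649 and TM4SF18 chr3:149318498-149333636, both on the minus strand, with starts 44.0 kb apart. TM4SF4 spans chr3:149474697-149503394 on the plus strand, and its start lies 97.0 kb from that of TM4SF1. TM4SF5 spans chr17:4771886-4783211 on the plus strand and TM4SF20 chr2:227362038-227381647 on the minus strand, with the listed start used for TM4SF20 inside that span. The 250 bases before each transcription start, read from RefSeq on the gene's own strand, are shown because the members differ in level and in direction while 3 of them are neighbours. Capitals mark matches, on either strand, to 6 short motifs: the TATA box TATAAA, the CCAAT box CCAAT, the GC box GGGCGG, the AP-1 site TGANTCA, the antioxidant response element core TGACNNNGC and the GATA site AGATAA.
TM4SF1 (chr3:149377650-149377899, minus strand): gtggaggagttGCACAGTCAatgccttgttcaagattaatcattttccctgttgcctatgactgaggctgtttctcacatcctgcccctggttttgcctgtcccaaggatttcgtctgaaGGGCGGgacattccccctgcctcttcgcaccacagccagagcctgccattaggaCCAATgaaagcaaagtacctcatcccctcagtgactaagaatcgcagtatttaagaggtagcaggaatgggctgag
TM4SF18 (chr3:149333637-149333886, minus strand): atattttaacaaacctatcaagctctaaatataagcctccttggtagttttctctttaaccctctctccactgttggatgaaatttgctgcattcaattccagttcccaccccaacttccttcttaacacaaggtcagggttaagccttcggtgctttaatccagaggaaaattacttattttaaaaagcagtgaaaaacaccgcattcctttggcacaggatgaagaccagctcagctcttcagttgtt
TM4SF4 (chr3:149474447-149474696, plus strand): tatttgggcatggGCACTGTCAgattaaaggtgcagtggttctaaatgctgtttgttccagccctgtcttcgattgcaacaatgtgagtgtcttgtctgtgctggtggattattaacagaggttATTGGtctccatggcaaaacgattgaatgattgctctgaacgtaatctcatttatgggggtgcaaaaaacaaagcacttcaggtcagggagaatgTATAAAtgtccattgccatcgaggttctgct
TM4SF5 (chr17:4771636-4771885, plus strand): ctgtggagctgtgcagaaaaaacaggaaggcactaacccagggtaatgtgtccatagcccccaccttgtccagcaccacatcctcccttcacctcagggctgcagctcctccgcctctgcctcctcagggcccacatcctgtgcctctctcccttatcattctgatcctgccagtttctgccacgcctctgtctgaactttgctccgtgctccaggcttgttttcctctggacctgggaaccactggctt
TM4SF20 (chr2:227379307-227379556, minus strand): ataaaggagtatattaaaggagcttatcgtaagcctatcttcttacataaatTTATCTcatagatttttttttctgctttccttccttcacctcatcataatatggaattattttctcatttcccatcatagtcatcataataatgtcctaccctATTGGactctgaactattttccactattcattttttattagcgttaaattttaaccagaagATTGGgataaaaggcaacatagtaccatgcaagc

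The promoters had little in common. TM4SF4 alone of the 5 held a TATA box, at -31 to -26 from its start, a motif found in the same window of 11.1% of 27305 RefSeq promoters. CCAAT boxes lay at -76 to -72 in TM4SF1, at -126 to -122 in TM4SF4 and at -95 to -91 and -34 to -30 in TM4SF20, with a share of 33.0% among all promoters. The GC box of TM4SF1 at -130 to -125 is a motif of 42.3% of promoters, and the GATA match of TM4SF20 at -198 to -193 one of 9.37%. The antioxidant response element core, the site that Nrf2 binds, matched at -239 to -231 in TM4SF1, a gene with a lower value in A549/DDP, and at -237 to -229 in TM4SF4, a gene with a higher one, and it is present in 11.0% of promoters. No member held the AP-1 site (6.6% of promoters), and TM4SF18 and TM4SF5 held none of the 6. The windows of TM4SF20 and TM4SF18 were rich in A and T, with 31.2% and 40.0% G and C, against 43.2% in TM4SF4, 50.8% in TM4SF1, 57.2% in TM4SF5 and a median of 58.0% over all promoters. A match is a description of letters and not a measured binding site.

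The family's levels ran from one of the most abundant transcripts to one at the edge of detection. On the FPKM scale, which divides by transcript length, TM4SF1 ranked 153 in A549 among 20609 genes with a mean above 0, TM4SF4 5079, TM4SF18 6617, TM4SF20 11948 and TM4SF5 16858. In A549/DDP the order among 19545 genes was TM4SF1 at 401, TM4SF20 at 1215, TM4SF4 at 2115, TM4SF5 at 7631 and TM4SF18 at 8880. TM4SF1 thus stayed the most abundant member, TM4SF20 moved from the fourth place to the second and TM4SF18 from the third to the last. In A549 each neighbouring pair of this order was apart in both libraries. In A549/DDP the 2 libraries of TM4SF5 lay on both sides of TM4SF18, so the last places of that order are not resolved.

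**Figure D1:**
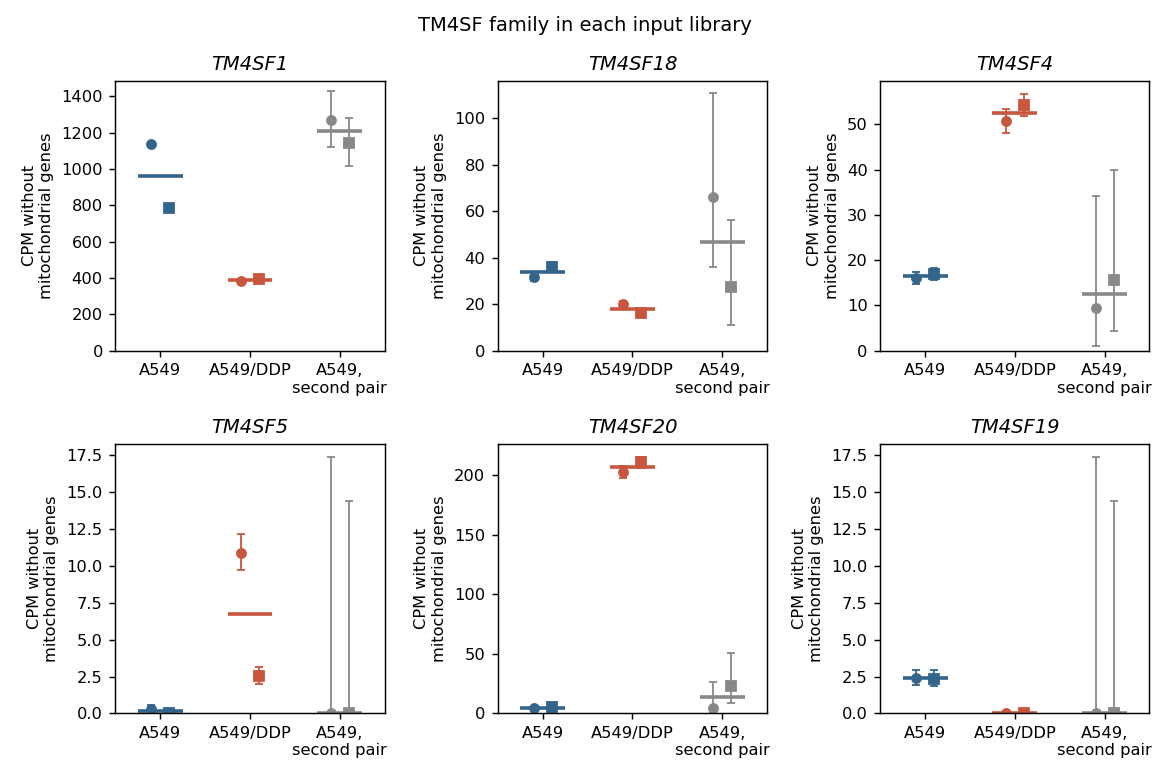
CPM without mitochondrial genes (vertical axes, linear, each from 0) of the 5 members and TM4SF19 in each input library, with circles for replicate 1, squares for replicate 2, a bar at each group's mean and 95% Poisson intervals, which cover counting error only. TM4SF1 and TM4SF18 sit lower and TM4SF4, TM4SF5 and TM4SF20 higher in both A549/DDP libraries than in both first A549 libraries, and the second A549 pair has wide intervals.

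TM4SF1 (ENSG00000169908.11), which binds the collagen receptor DDR1 and the adaptor syntenin, had 677.67 and 470.05 FPKM in A549 replicates 1 and 2 and 229.98 and 239.42 FPKM in A549/DDP replicates 1 and 2. The expected counts were 40112 and 27157 against 11129 and 13428. Both A549/DDP libraries were below both A549 libraries, and the A549 pair was wider apart than the A549/DDP pair, with 573.86 ± 146.81 against 234.70 ± 6.68 FPKM (mean ± SD, n = 2). After TMM scaling, which adjusts for differences in library composition, TM4SF1 was 2.61-fold lower in A549/DDP, a log2 fold change of -1.38 with a standard error of 0.24. In the second A549 pair TM4SF1 had 1270 and 1144 CPM without mitochondrial genes, with 95% Poisson intervals of 1123 to 1431 and 1017 to 1283. On that scale they lie with the 1137 of A549 replicate 1, above the 786 of A549 replicate 2 and above the 381 and 395 of A549/DDP. On the FPKM scale, whose total includes the mitochondrial reads, the second pair had 207.62 and 203.03, below A549/DDP, so the order against that pair depends on the scale.

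TM4SF18 (ENSG00000163762.6), the neighbour of TM4SF1, had 13.04 and 14.82 FPKM in A549 and 8.17 and 7.91 in A549/DDP. Without mitochondrial genes its CPM were 31.7 and 35.9 against 19.9 and 16.2. Again both A549/DDP libraries were below both A549 libraries, by 1.95-fold (log2 fold change -0.97, SE 0.29). The second A549 pair, with 14 and 7 counts, gave 66.1 and 27.3 CPM on the same scale, and the interval of the lower one, 11.0 to 56.3, covered the values of both lines. Among all genes tested, 32.7% had both A549/DDP libraries below both A549 libraries, and 2 of the 5 members did. By the call used for other genes, an adjusted p under 0.05 in edgeR, 8.0% of all genes were lower in A549/DDP.

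TM4SF4 (ENSG00000169903.6), a protein of liver and intestine epithelium that has been linked to IGF1R signalling in lung cancer cells, had 20.19 and 23.03 FPKM in A549 and 51.53 and 64.92 FPKM in A549/DDP. Its counts were 566 and 582 against 1481 and 1841. The groups did not overlap, and the TMM-scaled level was 3.06-fold higher in A549/DDP (log2 fold change 1.61, SE 0.25). TM4SF4 is therefore the member of the chromosome 3 group with a higher value in A549/DDP, while TM4SF1 and TM4SF18 had lower values. The mean length of TM4SF4 transcripts, as the deposited tables weight it over 3 annotated transcripts, was 903 and 857 bases in A549 and 1102 and 967 bases in A549/DDP, so values per length and counts do not give quite the same ratio. In the second A549 pair TM4SF4 had 2 and 4 counts, or 9.44 and 15.6 CPM without mitochondrial genes, with intervals of 1.14 to 34.1 and 4.26 to 40.0. These included the 16.0 and 16.8 of the first A549 pair and lay below the 50.7 and 54.2 of A549/DDP.

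TM4SF20 (ENSG00000168955.3), which controls the membrane insertion and cleavage of the transcription factor CREB3L1, was low in A549 and the second most abundant member in A549/DDP. It had 2.15 and 2.35 FPKM in A549 and 93.22 and 97.39 FPKM in A549/DDP. The counts were 166 and 176 against 5931 and 7159. Replicates agreed closely in both lines, with 2.25 ± 0.14 and 95.31 ± 2.95 FPKM (mean ± SD, n = 2). The TMM-scaled level was 40.5-fold higher in A549/DDP (log2 fold change 5.34, SE 0.21), and by log2 fold change TM4SF20 stood at place 225 from the highest among 16406 genes. The second A549 pair had 1 and 6 counts of TM4SF20, or 4.72 (0.12 to 26.3) and 23.4 (8.60 to 51.0) CPM without mitochondrial genes. Both upper bounds were below the 203 and 211 of A549/DDP. Transcript length was 2296 bases in every library, so weighting by length does not enter the TM4SF20 values.

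TM4SF5 (ENSG00000142484.6), a hepatic protein that associates with integrins, EGFR and CD44, had 0.52 and 0 FPKM in A549 and 18.43 and 4.40 FPKM in A549/DDP. The counts were 11 and 0 against 318 and 86. Both A549/DDP libraries were above both A549 libraries, but they differed from each other more than any other member did, with 11.42 ± 9.92 FPKM (mean ± SD, n = 2). The log2 fold change of 5.28 had a standard error of 1.94, so its size is poorly fixed. The second A549 pair had no count of TM4SF5, which with a floor of 3 counts allows up to 14.2 and 11.7 CPM, above the 10.9 and 2.53 seen in A549/DDP, so the pair could not have shown a difference. With TM4SF4 and TM4SF20, 3 of the 5 members had both A549/DDP libraries above both A549 libraries, as did 29.7% of all genes tested, and 6.85% of all genes were called higher in A549/DDP. Since the members were chosen by this contrast, nothing is read from these counts.

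**Figure D2:**
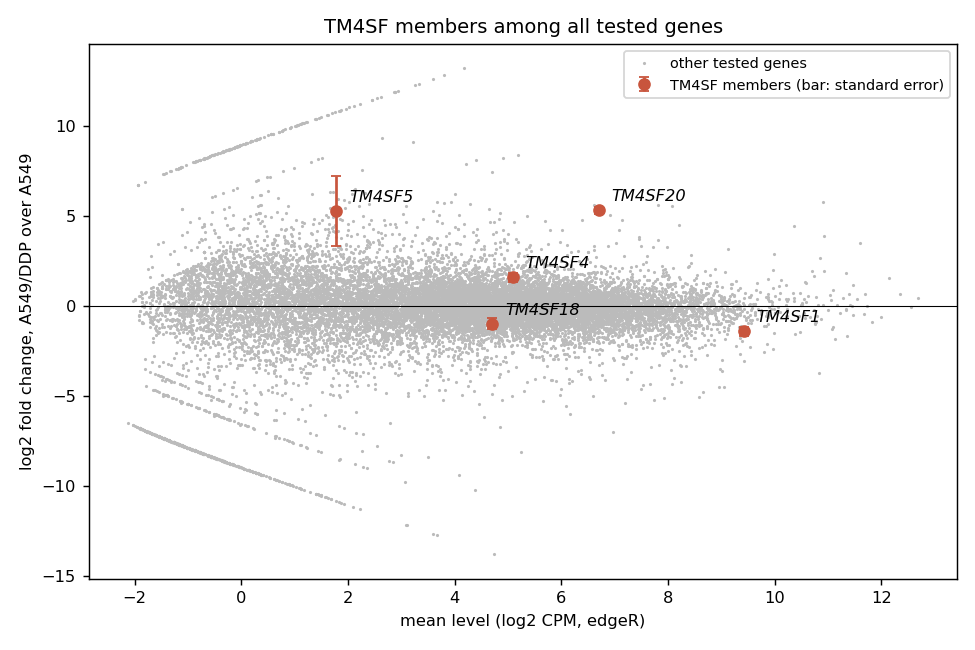
Log2 fold change of A549/DDP over A549 (vertical axis) against mean level in log2 CPM (horizontal axis) for all 16406 tested genes, as small points, and the 5 members, with bars of 1 standard error. TM4SF20 lies at the upper edge of the cloud at a high level with a short bar, TM4SF5 lies as high with a long bar, and TM4SF1, TM4SF18 and TM4SF4 lie nearer 0; the slanted lines of points are genes at 0 in all libraries of 1 line.

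Uneven A549/DDP replicates, as in TM4SF5, were seen in 3 of 6 liver and intestine markers and not in the 3 others. ALB, the albumin of blood plasma, had 825 and 272 counts in A549 and 3841 and 25 counts in A549/DDP. APOA1, the main protein of high density lipoprotein, had 168 and 61 against 831 and 0, and FABP1, a fatty acid carrier, had 14 and 6 against 89 and 0. As with TM4SF5, the first replicate was the higher one in each line. Unlike TM4SF5, which was above A549 in both A549/DDP libraries, these 3 genes had A549/DDP libraries on both sides of A549. The 3 others were higher in both A549/DDP libraries than in both A549 libraries. HNF4A, a hepatocyte and gut transcription factor, had 5.41 and 7.78 FPKM in A549 and 47.4 and 48.3 FPKM in A549/DDP. HNF4A thus did not share the uneven replicates of ALB. VIL1, the villin of the gut brush border, had 0.05 and 0.02 FPKM against 16.2 and 12.3. CDX2, an intestinal transcription factor, had 0.60 and 0 FPKM against 3.44 and 3.89. The summed FPKM of the 6 markers was 31.4 and 17.7 in A549, 215.8 and 64.99 in A549/DDP and 0 and 0.99 in the second A549 pair. Their part in the levels of TM4SF4, TM4SF5 and TM4SF20 was not tested.

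The make-up of the family shifted together with the single genes. TM4SF1 held 94.97% and 92.1% of the summed TPM of the 5 members in A549 and 57.3% and 57.8% in A549/DDP. TM4SF20 held 0.302% and 0.460% in A549 and 23.2% and 23.5% in A549/DDP. TM4SF4 held 2.83% and 4.51% against 12.8% and 15.7%. The share of TM4SF18 hardly moved, at 1.83% and 2.90% against 2.04% and 1.91%, although its level was lower, since the summed TPM was lower as well, with 1107 and 820 in A549 and 609 and 625 in A549/DDP. TM4SF5 reached 4.59% and 1.06% in A549/DDP. For each unit of TM4SF20, on the FPKM scale, there were 315 and 200 units of TM4SF1 in A549 and 2.47 and 2.46 in A549/DDP. The same ratio of TM4SF1 to TM4SF4 was 33.6 and 20.4 in A549 and 4.46 and 3.69 in A549/DDP. These ratios are taken within a library and do not depend on how libraries are scaled against each other. In the second A549 pair TM4SF1 held 94.6% and 96.4%, near the shares of the first. Its ratio to TM4SF20 there was 364 and 68.4 and its ratio to TM4SF4 165 and 92.7, on few counts of the rarer genes. TM4SF4 was also given a length of 2101 bases in that pair, against 903 and 857 in the first A549 pair. The FPKM ratios to TM4SF4 in the 2 pairs therefore do not rest on the same length.

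The remaining TM4SF genes were rare. TM4SF19 (ENSG00000145107.15), a member known from macrophages and osteoclasts, had 84.15 and 81.35 expected counts in A549 and none in A549/DDP or in the second pair. Set against a floor of 3 counts in each library, its level was at least 24.8-fold lower in A549/DDP. The gene shares exons with the readthrough gene TM4SF19-DYNLT2B, which had no count in A549, none in A549/DDP replicate 1 and 109 counts in A549/DDP replicate 2. TM4SF19-AS1, the antisense gene, had 11.85 and 26.65 counts in A549 and 31 and 0 counts in A549/DDP. The 3 summed to 96 and 108 counts in A549 and 31 and 109 counts in A549/DDP, which overlap. In A549/DDP replicate 1 all 31 counts were of TM4SF19-AS1. How reads were divided among these genes was not tested, so the TM4SF19 value is uncertain. TM4SF1-AS1 and TM4SF18-AS1 each had 13 counts in A549 replicate 1 and none in the other first inputs.

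Genes with the most similar profile were found over the 4 first inputs, as the smallest Euclidean distance between centred log2 CPM values among 11348 genes with a mean of at least 5 CPM. An offset of 0.5 CPM was added before taking logs, and it sets the A549 value of genes far below it. For TM4SF20 the smallest distances were those of VIL1 (0.0739), with 1 count in each A549 library, and of THRIL (0.232) and ENSG00000259132 (0.288), with no count in A549. All 3 were far below the offset in A549 and TM4SF20, at 5.01 CPM, was not, so these distances depend on the offset and are not read as a shared fold. The genes nearest to TM4SF4 included DUSP16 (0.0816) and KPTN (0.114). TM4SF1 was nearest to ZNF544 (0.0668), HELZ (0.0773) and NOC3L (0.0829), and TM4SF18 to PRPF38A (0.0453), HEATR1 (0.0549) and ETV4 (0.0713). The mean of TM4SF5 over all 4 libraries was too low for this comparison.

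The genes around the chromosome 3 group were compared in the same fit. Annotated genes were taken whose start, or lower coordinate where no start was listed, lies within 500 kb of a start of TM4SF1, TM4SF4 or TM4SF18. Of these 30 genes, 26 were in the tables and 10 could be tested. Of the 10 tested, 1 was higher in A549/DDP and none was lower, against 6.85% and 8.0% of all genes, so the count does not set the locus apart. The gene was CP, which encodes ceruloplasmin, the copper carrier of plasma made mainly in liver. No start was listed for CP, and its lower coordinate lies 215.2 kb from the start of TM4SF1. CP had 5.68 and 5.92 CPM in A549 and 151 and 171 CPM in A549/DDP. It was higher in A549/DDP with a log2 fold change of 4.79 (SE 0.22, adjusted p = 0.00156, edgeR). The other 9 did not pass, among them HPS3 with a log2 fold change of 0.73 and WWTR1, which encodes the Hippo pathway coactivator TAZ, with -0.19. HPS3 and CP lie beyond TM4SF18, and WWTR1 lies beyond TM4SF4. The median log2 fold change of the 10 genes was -0.07, against -0.00 over all genes. Of the 10, 2 are pseudogenes, EEF1A1P45 (3.66) and UBQLN4P1 (-0.96), which share sequence with their parent genes and are uncertain.

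**Figure D3:**
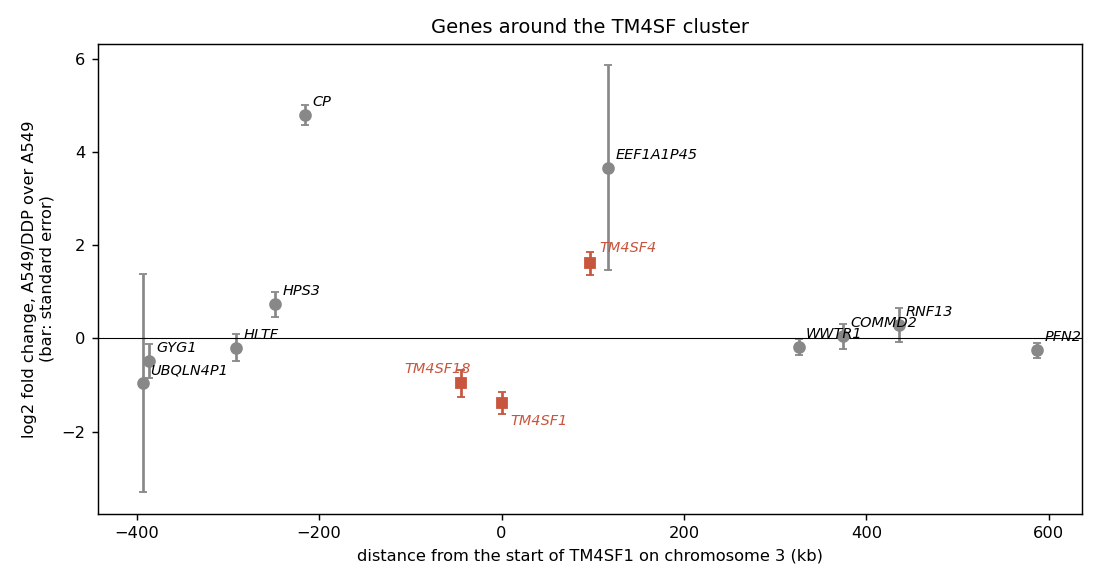
Log2 fold change of A549/DDP over A549 with bars of 1 standard error (vertical axis) against distance from the start of TM4SF1 in kb (horizontal axis) for the 3 members on chromosome 3, as squares, and the 10 tested neighbours, as circles. TM4SF18 and TM4SF1 lie below 0 and TM4SF4 above it, CP stands highest at 4.79, and most neighbours lie near 0. CP, PFN2, EEF1A1P45 and UBQLN4P1 had no listed start and are placed by their lower coordinate.

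Tetraspanins, the larger family with the same membrane topology, were set beside the L6 genes. Of 33 tetraspanin genes 24 could be tested, 6 were higher in A549/DDP, 1 was lower and 17 did not pass, where 6.85% and 8.0% of all tested genes were higher and lower. The median log2 fold change was 0.37 against -0.00 over all genes. TSPAN13 rose from 2.67 to 25.8 CPM (log2 fold change 3.27, SE 0.47, adjusted p = 0.0102, edgeR). TSPAN7 rose from 3.30 to 23.9 CPM (2.86, SE 0.43, adjusted p = 0.0115). Both had a low level in A549, which is the base of the fold change, so nothing is read from that. UPK1B, a uroplakin of the bladder surface, rose from 14.2 to 70.6 CPM (2.31, SE 0.23, adjusted p = 0.00419). TSPAN14, a partner of the sheddase ADAM10, rose from 93.2 to 244 CPM (1.39, SE 0.17, adjusted p = 0.00728). ADAM10 partners did not all go one way. TSPAN15, another of them, fell from 70.0 to 27.9 CPM (-1.33, SE 0.31, adjusted p = 0.0387). The other 2 that rose were CD81, a partner of many immune and growth receptors, from 69.5 to 165 CPM (1.25, SE 0.25, adjusted p = 0.0262), and TSPAN3, from 166 to 260 CPM (0.65, SE 0.16, adjusted p = 0.0438). CD63 and CD151, with log2 fold changes of 0.82 and 0.65, did not pass (adjusted p = 0.0577 and 0.130), but passed with the replicate number as a block (adjusted p = 0.00608 and 0.0297) and in DESeq2 (adjusted p = 0.00143 and 0.0375). CD9, at 0.37, had an adjusted p of 0.518 in edgeR. When both A549 pairs entered the fit, 2 tetraspanins passed, TSPAN13 (adjusted p = 0.0319) and UPK1B (adjusted p = 0.0318). None of the rises in tetraspanins reached the 5.34 of TM4SF20, but TM4SF20 was chosen by this contrast, so nothing is read from that order.

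Proteins known to bind or to be processed by TM4SF proteins formed the next list. Of 12 partner genes 11 could be tested, 1 was higher, 1 was lower and 9 did not pass, which is close to the 6.85% and 8.0% of all tested genes. Their median log2 fold change was -0.09. DDR1, the collagen receptor that TM4SF1 binds, had 55.4 and 65.1 CPM in A549 and 104 and 117 CPM in A549/DDP. It was higher in A549/DDP by 0.88 on the log2 scale (SE 0.20, adjusted p = 0.0341, edgeR), while TM4SF1 had a lower value. EGFR, the growth factor receptor that associates with TM4SF5, had 1733 and 1307 CPM in A549 and 250 and 267 CPM in A549/DDP. Its log2 fold change was -2.56 (SE 0.19, adjusted p = 0.00237). The integrin genes ITGA2, ITGA5 and ITGB1 had log2 fold changes of -0.69, -0.59 and -0.40, CD44 one of -0.54 and IGF1R, linked to TM4SF4, one of -0.02, and none passed in edgeR. In DESeq2 CD44 passed (adjusted p = 0.00648). CREB3L1, the target of TM4SF20, had a mean of 1.54 CPM in A549 and 1.44 CPM in A549/DDP (log2 fold change -0.09, SE 1.45). The calls of DDR1 and EGFR were lost when both A549 pairs entered the fit (adjusted p = 0.231 and 0.0589).

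**Figure D4:**
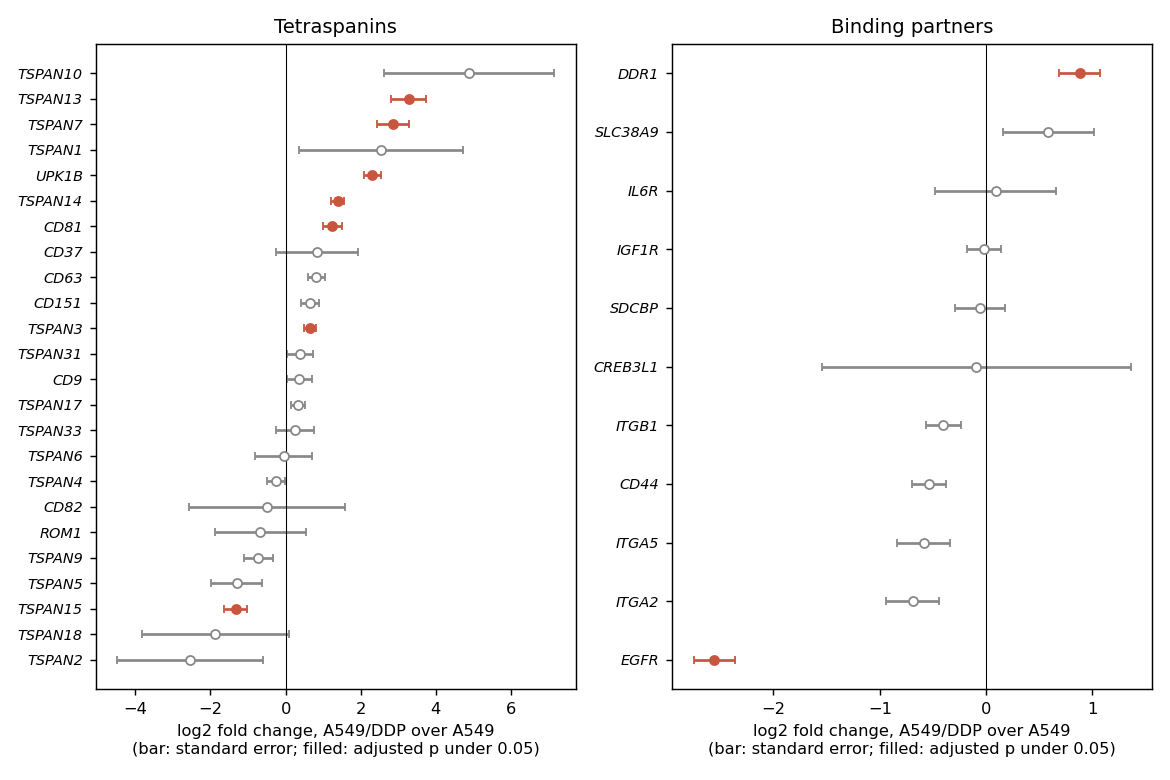
Log2 fold change of A549/DDP over A549 (horizontal axes) with bars of 1 standard error for 24 tetraspanin genes and 11 partner genes, ordered by size, with filled points where the adjusted p was under 0.05. Filled points lie on the higher side for 6 tetraspanins and DDR1, and on the lower side for TSPAN15 and EGFR.

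The m6A-seq libraries ask where methylated adenosine was found along these transcripts. An antibody against m6A pulls down RNA fragments, and a peak is a stretch called as enriched above input. The deposited lists hold positions and a p-value but no height, so a peak is present or not. A549 replicates 1 and 2 had 26320 and 14576 peaks in all, and A549/DDP replicates 27244 and 10661. The members had 6 and 6 peaks in A549 and 12 and 7 peaks in A549/DDP, which merged over libraries into 15 regions. Both replicates shared 3 of these regions in A549 and 7 in A549/DDP. Shared regions were not counted over all genes, so nothing is read from that difference. By gene, a peak in both libraries was called at 27.1% of tested genes in A549 and 19.5% in A549/DDP. At p-values of at most 1e-05 in the deposited lists neither line had a region called in both libraries.

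TM4SF4 was the member with peaks in all 4 libraries, as 13.9% of tested genes were. One region lay at its 5′ end, at chr3:149474670-149474969, and the other joined exon blocks near its 3′ end, within chr3:149487705-149502883. The lowest p-values were 7.8e-07 and 5.1e-05 in A549 and 7.8e-05 and 2.8e-07 in A549/DDP, in no order by line. Sequence at the 5′ region, from the RefSeq window on the plus strand, is shown because it holds an instance of the m6A consensus, in capitals, in which the methylated adenosine is the one after GG.
TM4SF4 (chr3:149474712-149474740): aagcaactccaaGGACAcagttcacagaa
The motif starts at base 149474724 and lies inside the called peak of every library. The window ends at base 149474746, while the peaks run to base 149474919 or 149474969, and that remainder was not searched for the motif. The peaks are far wider than a motif, so which adenosine carries the mark was not measured. How often the consensus occurs in other stretches of this length was not counted.

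TM4SF18 had peaks in the A549 replicates, 2 and 3 of them, and none in A549/DDP, a pattern of 4.62% of tested genes. They lay in the last part of the gene, mainly within chr3:149319046-149319992, with lowest p-values of 0.00011 and 0.0066. Its input level was also lower in A549/DDP, and the part of that level in the missing peaks was not tested. A peak in both A549 libraries was called at 27.1% of tested genes, and TM4SF18 and TM4SF4 were the 2 members with one.

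TM4SF1 had no peak in A549 replicate 1, 1 peak in A549 replicate 2, and 4 and 3 peaks in A549/DDP. The region at chr3:149369220-149369666, close to the 3′ end, was called in A549 replicate 2 and both replicates of A549/DDP. The next one, chr3:149369716-149369914, and a spliced one within chr3:149371797-149375570 were called in both A549/DDP libraries and in no A549 library. TM4SF1 had more called regions in the line with less of its RNA. Such regions were not counted over all genes, so nothing is read from that difference. In A549 replicate 2 the list gives the p-value of the TM4SF1 peak as 0.

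TM4SF20 had 2 and 0 peaks in A549 and 4 and 2 peaks in A549/DDP. Both A549/DDP libraries shared chr2:227362306-227362555 and chr2:227363154-227363453 near the 3′ end. A549 replicate 1 had a peak between them, at chr2:227362854-227363104, with a p-value of 1.2e-07, which neither A549/DDP library had. A region that starts 50 bases from the transcription start was called in A549 replicate 1 and A549/DDP replicate 1. TM4SF5 had 2 peaks in A549/DDP replicate 1 and none in the 3 others. The input labelled A549/DDP replicate 1, a separate library, had the most TM4SF5 RNA. A peak in both A549/DDP libraries was called at 19.5% of tested genes, and TM4SF1, TM4SF4 and TM4SF20 had one. No member had peaks in both A549/DDP libraries and neither A549 library, which was the case for 1.97% of tested genes.

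**Figure D5:**
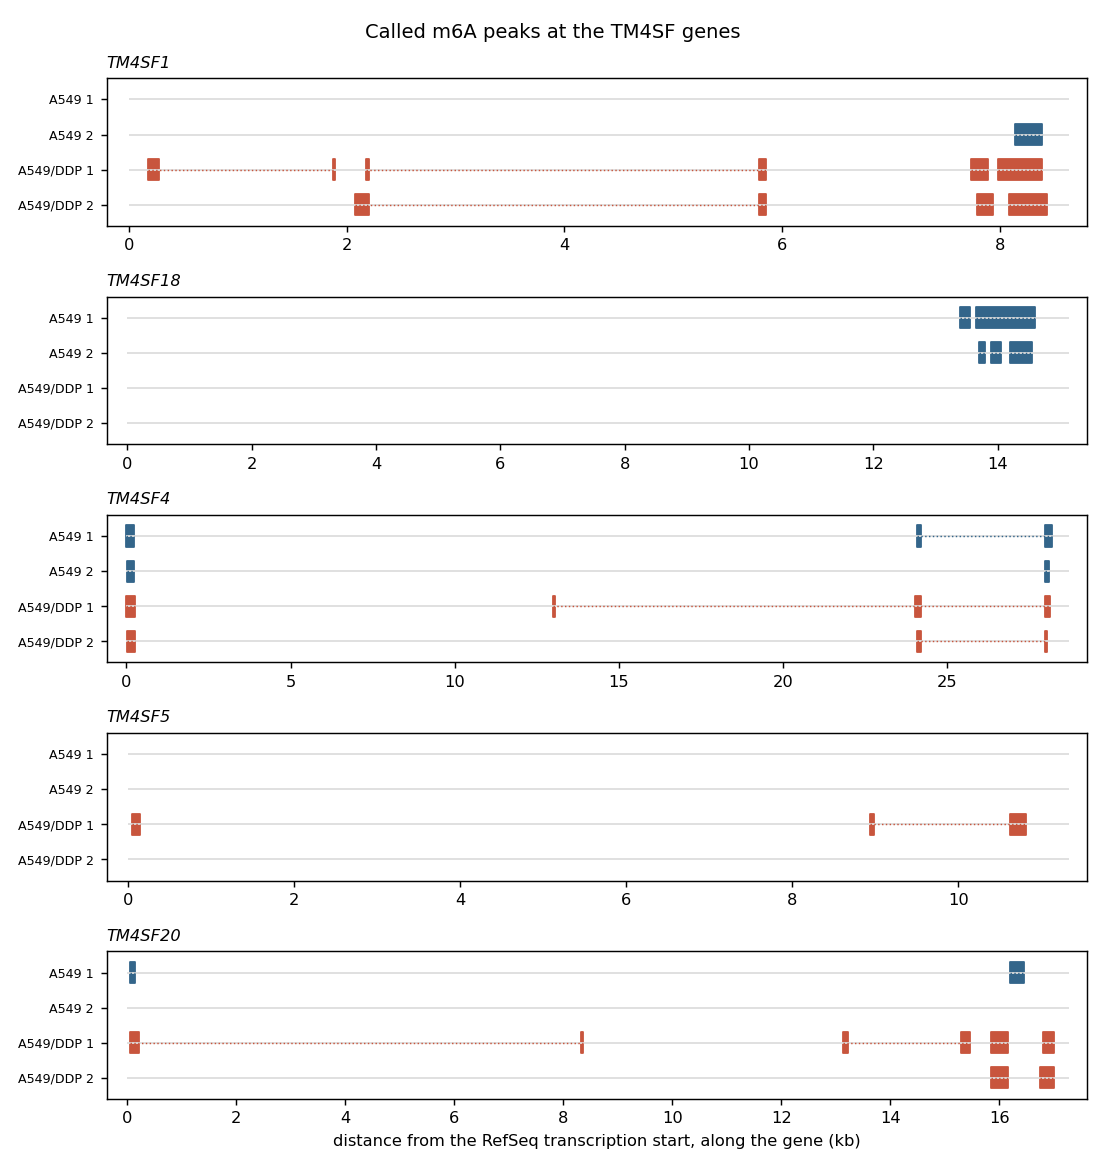
Called m6A peaks (boxes, exon blocks of 1 peak joined by dotted lines) along the 5 genes, by distance from the RefSeq transcription start in kb (horizontal axes), with 1 row for each of 4 m6A-seq libraries. TM4SF4 has a box at its start in all 4 rows, the boxes of TM4SF18 are in the A549 rows, and TM4SF1, TM4SF5 and TM4SF20 have more boxes in the A549/DDP rows.

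Peak calls also moved with expression level. When tested genes were put into 10 bins of equal size by mean level, the share with a peak in both A549 libraries was 1.95% in the lowest bin and 43.4% in the highest, and the share in both A549/DDP libraries was 0.910% and 44.1%. TM4SF5 was in bin 3, TM4SF18 in bin 6, TM4SF4 in bin 7, TM4SF20 in bin 9 and TM4SF1 in bin 10. The mean was taken over the first inputs of both lines, so the bins of TM4SF20 and TM4SF5 rest mostly on A549/DDP. In A549 and A549/DDP, TM4SF20 had means of 5.01 and 203 CPM and TM4SF5 of 0.167 and 6.60 CPM. TM4SF5, the lowest member, had the fewest libraries with a peak and TM4SF4 the most, while TM4SF1, in the top bin, had none in 1 A549 library. The number of peaks per list differed by more between replicates of a line than between lines, and A549/DDP replicate 2, with 10661 peaks, was the list with the fewest.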

How the data were processed

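Input RNA and m6A-immunoprecipitated RNA of A549 and A549/DDP cells were sequenced. Each deposited input table gives, per gene, expected counts, TPM, FPKM and transcript lengths (other columns), in the layout of RSEM. The deposited peak lists give positions and a p-value per peak, and whether it is adjusted is not said. The submitters' processing notes name STAR, RSEM, bedtools and hg38. The peak caller is not given in the sources used here.

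The deposited expected counts were rounded, filtered with filterByExpr, scaled by TMM and fitted in R 4.3.3 by the quasi-likelihood test of edgeR 4.0.16 on the 4 first inputs, with Benjamini-Hochberg adjustment over 16406 genes. All 5 members passed the filter. A standard error is the log2 fold change over the square root of edgeR's F. The common biological coefficient of variation was 0.656. Scripts were tested on simulated data. Replicate numbers of the A549 m6A-seq libraries follow the labels, and the file names have them exchanged. Members and lists were chosen with earlier results of these data known. Named were the members, other TM4SF genes, markers, up to 4 rises and 4 falls of each list past the threshold, and the 3 nearest profiles (1 marker and 1 nearest profile are not reported here), with CD81, TSPAN3, CD63, CD151, CD9, HPS3, WWTR1, the 2 pseudogenes and the partners that did not pass named after their values were seen. Distances used log2 (CPM + 0.5). Peaks were merged where exon blocks shared at least 1 base. Between 98.9% and 99.4% of peaks per list lay in or close to the GRCh38.p14 span of their gene. Neighbours without a listed start were placed by their lower coordinate. Alternatives were DESeq2 1.42.0, limma 3.58.1, other filters and scalings, and the second A549 pair.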

Additional observations from a re-analysis of the deposited data

How the results depend on the processing

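TM4SF1, TM4SF18, TM4SF4 and TM4SF20 kept their direction under every alternative run. TM4SF5 did where A549 had a count, and could not be fitted with at least 10 counts in every library. None of the alternatives set the second A549 pair on the TPM scale, whose total includes the mitochondrial reads. On that scale the pair lay below A549/DDP for TM4SF1 (142 and 134 against 349 and 361). The same held for TM4SF18 (6.95 and 1.55 against 12.4 and 11.9), so both directions were reversed there. TM4SF4 and TM4SF20 stayed higher in A549/DDP. With the second A549 pair in place of the first, in a fit whose median over all genes was 0.80, the log2 fold changes were -2.63 for TM4SF1, -2.32 for TM4SF18, 1.04 for TM4SF4, 9.74 for TM4SF5, which rests on 0 counts in that pair and is no bound, and 2.80 for TM4SF20, so relative to that median TM4SF4 differed by little. With both pairs they were -2.29 for TM4SF1, -1.70 for TM4SF18, 1.41 for TM4SF4 and 4.58 for TM4SF20. Limma on log2(TPM + 1) and log2(TPM + 0.1) gave 1.34 and 1.36 for TM4SF4 and 4.996 and 5.31 for TM4SF20, upper-quartile scaling 5.39 and CPM without mitochondrial genes, an alternative chosen after seeing the data, 5.40 for TM4SF20. Leaving out each library in turn gave 3.84 to 10.78 for TM4SF5, with the highest value without A549 replicate 1, which leaves A549 at 0 counts and is no bound. Without A549 replicate 1 the value of TM4SF1 was -1.03.

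All genes past the threshold numbered 2437, against 4234 with DESeq2, 4010 with no filter beyond 1 count, 1492 and 1177 with limma at pseudocounts of 1 and 0.1, 3758 with the second A549 pair, 677 with both pairs and 2052 to 3809 when each library was left out (highest without A549 replicate 2), where the lone library is assumed to vary like the other line's. Tetraspanins past it fell from 7 to 3 under both limma settings and 2 with both pairs. Partners numbered 4 with the second pair, 0 with both (edgeR, where 4077 of all genes had an unadjusted p under 0.05) and 1 to 4 when each library was left out (4 without either A549 library, 1 without either A549/DDP library). Neighbours numbered 2 with no filter, 2 with the second pair and 1 to 2 when each library was left out. At peak p-values of at most 1e-05 the regions of both lines numbered 0 and 0 and the shares of genes with a peak in both libraries were 6.42% for A549 and 5.92% for A549/DDP. With 1 m6A-seq library left out, highest without replicate 2 of each line, they were 4 to 6 regions and 30.6% to 43.7% for A549, and 7 to 12 regions and 22.2% to 40.7% for A549/DDP. The cause of these changes was not tested.

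With the replicate number as a block 3536 genes and 9 tetraspanins passed, and the members' values kept their direction. Same-numbered libraries deviated together with a correlation of 0.0265, so the numbers were not taken as pairs. Depth limits the second A549 pair, and 2 libraries a line limit every standard error.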
